A study of Danio rerio with 12 samples.

Results

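Collagen genes were followed in whole zebrafish embryos that carry a Gal4 knock-in at etv2, which encodes a transcription factor of the ETS family acting early in the formation of endothelium and blood. Members were all rows whose symbol was col, a number, the letter a and a number, in any letter case. This gave 52 collagen rows of 31172 gene rows in the tables, after 2 col4a3bp rows, which belong to a ceramide transfer protein gene, were left out. None of the 52 was equal in all 6 libraries of a stage. The rule used symbols alone and no measured value, although members were chosen with earlier results of these data known.

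Every embryo carried the allele etv2 Gt(2A-Gal4)ci32, in 1 copy (heterozygous) or 2 copies (homozygous), so the comparison has no group with unaltered etv2. Parents were heterozygous carriers of the knock-in that also carried UAS:GFP, a reporter switched on by Gal4, and their offspring were assigned to a genotype by where GFP was seen. Embryos of the 15-somite stage developed at 24 °C and those of 24 hpf (hours post fertilization) at 28 °C. The data comprised 12 libraries, 3 of each genotype at each stage, each from a pool of 15 to 20 whole embryos. The names het and hom with a number stand for the libraries of each genotype, except that 2 homozygous columns of the 15-somite table share a name and are called hom a and hom b, beside hom 2 (together homs 2, a and b).

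Collagens are extracellular proteins in which 3 chains wind into a triple helix. Fibrillar collagens (types I, II, V, XI and XXVII here) form the fibrils of skin, fascia, cartilage and the notochord sheath. Type IV forms the sheet-like network of basement membranes, including those around vessels, and type VIII is a short-chain collagen that forms lattices, known in mammals from the cornea and from vessel walls. Fibril-associated (FACIT) collagens such as types IX, XII and XIV sit on fibril surfaces, types XV and XVIII border basement membranes, types XIII, XVII, XXIII and XXV span the cell membrane, type VI forms beaded filaments and type VII anchoring fibrils. In early zebrafish embryos the notochord, epidermis and paraxial mesoderm are prominent sources of collagen.

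Values were the deposited log2 normalized values, each relative to the median of its own row over the 6 libraries of its stage. They show differences between libraries, hold no absolute level and cannot be compared between genes. Total depth is unknown, and the steps between low values put 1 read at 0.880 to 1.10 normalized units at the 15-somite stage and at 0.939 to 1.03 at 24 hpf. Rows whose median before centring was placed at 16 normalized units or more were tested. These were 46 of the 52 collagen rows at the 15-somite stage, 31 of them in the highest of the level classes that could be recovered, and 49 of the 52 at 24 hpf, 37 of them in that class. Each difference is homozygous minus heterozygous with its standard error (SE), from limma's moderated test in the 6 libraries of a stage, and a row was called where its p, adjusted by Benjamini-Hochberg across every tested row of the stage, lay below 0.05. The p-values measure the spread between pools of embryos, and in whole embryos fewer cells of a type cannot be told apart from less RNA per cell.

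The targeted gene was low in all homozygous libraries. As a share of the heterozygous geometric mean, etv2 (ENSDARG00000053868) held 106%, 97.7% and 96.7% in het 1 to het 3 at the 15-somite stage, and hom 2, hom a and hom b held 16.3%, 13.3% and 12.9%. At 24 hpf it stood at 101%, 99.2% and 99.6% in the heterozygous libraries and at 13.8%, 7.40% and 14% in hom 1 to hom 3. The fall was 7.09-fold (log2 difference -2.83, SE 0.10, adjusted p = 0.000115) and 8.88-fold (-3.15, SE 0.23, adjusted p = 0.0014). Endothelial markers fell with it. By limma 6 of 6 tested were called lower at the 15-somite stage, against 3.99% of all rows, with a median of -4.59. At 24 hpf 4 of 6 were called lower, against 0.337% of all rows, with a median of -1.47. The others, cdh5 (-1.28, adjusted p = 0.138) and fli1a (-0.39, adjusted p = 0.119), lay below 0 as well and did not pass. The mean value of the 6 markers at the 15-somite stage ran from 1.43 to 1.75 in the heterozygous and from -2.46 to -1.70 in the homozygous libraries. At 24 hpf it ran from 0.64 to 0.81 and from -1.21 to -0.80.

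One collagen gene fell at both stages, col8a2, which encodes the alpha 2 chain of type VIII collagen. At the 15-somite stage the log2 values of col8a2 (ENSDARG00000060893) were 0.54, 0.91 and 0.92 in het 1 to het 3 and -1.38, -0.58 and -0.54 in homs 2, a and b. All homozygous libraries lay below all heterozygous ones, and hom 2 was the lowest. On a linear scale the homozygous libraries held 22.2%, 38.7% and 39.7% of the heterozygous geometric mean. The difference was -1.62 (SE 0.27, 3.08-fold, 95% interval of the fold 2.01 to 4.73, adjusted p = 0.0177), with group means of 0.79 ± 0.22 and -0.83 ± 0.47 (SD, n = 3 libraries each, limma test).

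At 24 hpf the same gene stood at 0.87, 0.68 and 0.59 in the heterozygous and at -1.22, -1.12 and -0.59 in the homozygous libraries. The groups were again separate, and hom 1 to hom 3 held 26.2%, 28.1% and 40.5% of the heterozygous geometric mean. The difference was -1.69 (SE 0.21, 3.23-fold, 95% interval of the fold 2.31 to 4.50, limma adjusted p = 0.0180). The difference of the col8a2 effect between the stages was -0.06, with a 95% interval of -0.80 to 0.67 (SE 0.34, limma interaction, adjusted p = 0.945). Among all rows tested, ordered from the lowest difference up, col8a2 was at percentile 0.739 at the 15-somite stage and 0.278 at 24 hpf.

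The size of the col8a2 fall did not rest on 1 library, whereas the call was lost when any 1 of several libraries was left out. With each library left out in turn the difference ran from -1.77 to -1.35 at the 15-somite stage and from -1.88 to -1.57 at 24 hpf. The adjusted p of limma missed 0.05 at the 15-somite stage without het 2 (0.0721) or het 3 (0.0588). At 24 hpf it missed 0.05 without het 1 (0.102), het 2 (0.0836), het 3 (0.0795), hom 1 (0.0699) or hom 2 (0.0818), and it was 0.0142 without hom 3. With the replicate number as a block the adjusted p of limma at 24 hpf was 0.116.

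No other type VIII row passed the test at either stage. The values of col8a1a (ENSDARG00000077403), the alpha 1 chain gene that zebrafish need for a straight notochord, were -0.25, -0.02 and -0.09 in the heterozygous and 0.15, 0.21 and 0.02 in homs 2, a and b at the 15-somite stage. All homozygous libraries lay above all heterozygous ones, by 0.25 on average (SE 0.09, adjusted p = 0.157). At 24 hpf the col8a1a groups overlapped, with a difference of 0.07 (SE 0.07, adjusted p = 0.898). The paralogue col8a1b (ENSDARG00000003533) and col10a1 (ENSDARG00000054753), the gene of the related short-chain collagen of mature cartilage, lay below 16 normalized units at both stages and were not tested. Values of col8a1b ran from -0.92 to 1.16 and from -1.03 to 1.88 at the respective stages, with overlapping groups. The gene col10a1 was at its row median in 5 of 6 libraries at the 15-somite stage and in 4 of 6 at 24 hpf.

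**Figure D1:**
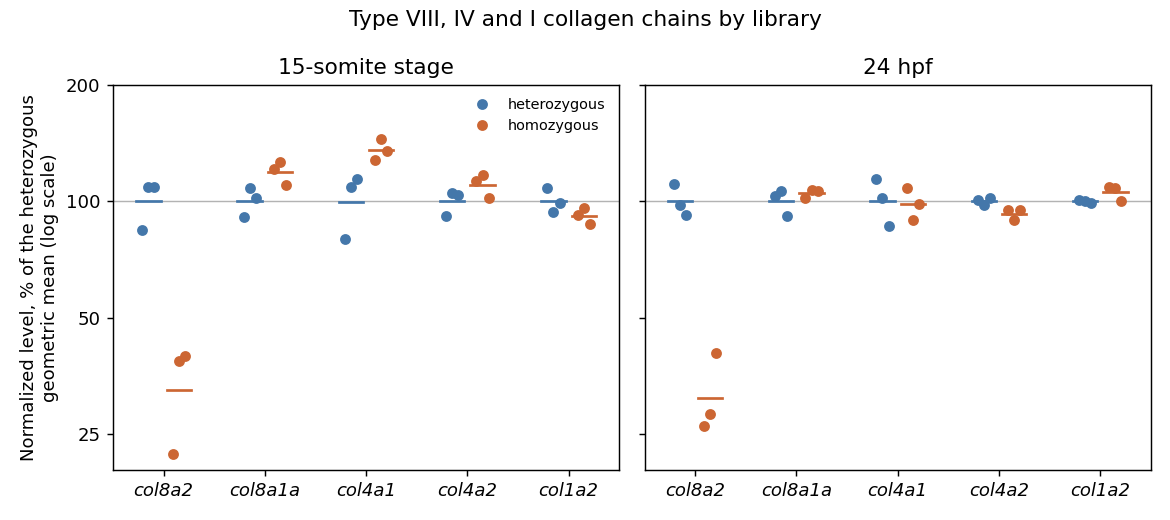
Normalized level of 5 collagen genes in each library, as percent of the heterozygous geometric mean of the stage on a log2-spaced axis. Points are libraries (blue heterozygous, orange homozygous, 3 of each per stage, numbered libraries from left to right) and bars are geometric means. The homozygous libraries of col8a2 sit between 22.2% and 40.5% over both stages, whereas those of col8a1a, col4a1, col4a2 and col1a2 sit between 87.6% and 145%.

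At the 15-somite stage the homozygous values of most other collagen rows lay slightly above the heterozygous ones, and the shifts were small beside the fall of col8a2. Of 46 tested rows 1 fell and 1 rose, beside 3.99% and 1.05% of all 18124 rows tested, or 5.04% in either direction. Differences were above 0 in 39 of 46 rows (84.8%), against 50.6% of all rows, and the median was 0.19, against 0.0031 over all rows. In 18 rows (39.1%) every homozygous library lay above every heterozygous library, against 13.5% of all rows. Only col8a2 had every homozygous library below, against 15.8%. At an unadjusted p below 0.05 there were 12 collagen rows above 0 and 2 below, col8a2 and col1a1b, where the shares over all rows were 9.92% and 12.2%. Apart from col8a2 no tested collagen row differed by 2-fold or more.

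The row that rose was the col5a3a row ENSDARG00000077739, a gene of a type V chain, which joins the fibrils that type I collagen builds. Its values were -0.34, -0.09 and -0.22 in het 1 to het 3 and 0.09, 0.22 and 0.20 in homs 2, a and b. The groups were separate, and the difference was 0.39 (SE 0.08, 1.31-fold, adjusted p = 0.0419). The call was lost with any 1 of the 6 libraries left out, with adjusted p between 0.0650 (without het 2) and 0.141 (without hom a) and differences between 0.326 and 0.452. A separate row with the same symbol, ENSDARG00000017360, stood at -0.41, -0.05 and -0.12 and at 0.11, 0.29 and 0.05, a difference of 0.34 (SE 0.11, adjusted p = 0.128). How reads were shared between rows of like sequence is not given in the sources used here, so values of these rows, of the paralogous a and b copies and of the rows marked 1 of 2 or 2 of 2 carry that uncertainty.

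The other fibrillar rows did not pass, and most lay above 0 apart from type I. Of 16 fibrillar rows tested 1 was called, against 5.04% of all rows. Above 0 lay 13, against 50.6% of all rows, and the median was 0.21. The type I genes, whose products make the main fibrils of skin and fascia, were at 0.02 for col1a1a (SE 0.09), -0.21 for col1a1b (SE 0.09, adjusted p = 0.223) and -0.12 for col1a2 (SE 0.08). Values of col1a1b were 0.30, -0.01 and 0.21 in the heterozygous and 0.01, -0.02 and -0.11 in homs 2, a and b, and the groups overlapped. The difference of col1a1a was 0.0833 at its highest and -0.0537 at its lowest with 1 library left out, so its sign is not determined.

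Type II and XI chains form the thin fibrils of cartilage and of the notochord sheath. For col2a1a (ENSDARG00000069093) the values were -0.03, -0.04 and -0.13 in the heterozygous and 0.16, 0.15 and 0.03 in the homozygous libraries, a difference of 0.18 (SE 0.07, adjusted p = 0.181). The largest fibrillar difference was that of col11a2 (ENSDARG00000012422), with -0.02, -0.42 and -0.32 against 0.38, 0.02 and 0.39, or 0.52 (SE 0.14, 1.43-fold, adjusted p = 0.0809). Both genes had separate groups and did not pass the test. The remaining type XI rows, col11a1a and col11a1b, were at 0.11 and 0.13, and COL2A1 (2 of 2) was at 0.09.

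Of the 6 type V rows 5 lay above 0, against 50.6% of all rows, with a median of 0.31. Besides the col5a3a rows these were COL5A2 (1 of 2) at 0.24 (SE 0.07, adjusted p = 0.0934), col5a3b at 0.34 (adjusted p = 0.358) and col5a2b at 0.27, whereas col5a1 was at -0.12. The type XXVII rows, whose genes zebrafish need for a well-formed notochord and spine, were at 0.41 for col27a1a (SE 0.22) and 0.27 for COL27A1 (1 of 2) (SE 0.18). Neither passed the test.

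All 6 type IV rows lay above 0 at the 15-somite stage, against 50.6% of all rows, and none passed, against 5.04%. The largest difference was that of col4a1 (ENSDARG00000055009), which encodes the alpha 1 chain of nearly every basement membrane, vessels included. Its values were -0.60, -0.15 and -0.08 in het 1 to het 3 and 0.08, 0.26 and 0.15 in homs 2, a and b. The groups were separate, het 1 was far below het 2 and het 3, and the difference was 0.44 (SE 0.14, adjusted p = 0.118), or 0.278 at its lowest with 1 library left out. Its partner col4a2 (ENSDARG00000020781), which supplies the second chain of the same trimer, was at -0.18, 0.01 and -0.01 against 0.11, 0.17 and -0.03, a difference of 0.14 (SE 0.08, adjusted p = 0.363) with overlapping groups. The other type IV rows, col4a3, col4a4, col4a5 and col4a6, were at 0.26, 0.16, 0.03 and 0.13.

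Fibril-associated rows followed a similar direction. Of 9 FACIT rows tested 8 lay above 0, against 50.6% of all rows, with a median of 0.21. By limma 0 were called, beside 3.99% of all rows lower and 1.05% higher. At an unadjusted p below 0.05 there were 4, all above 0, where the share over all rows was 9.92%. Those 4 were COL12A1 and the 3 rows of type IX, the collagen that coats type II fibrils. The type IX row col9a1 now carries the symbol col9a1b, and no row had the symbol col9a1a. The values of COL12A1 (ENSDARG00000019601) were -0.17, -0.30 and -0.10 against 0.10, 0.25 and 0.11, a difference of 0.34 (SE 0.08, adjusted p = 0.0518). The type IX genes col9a1, col9a2 and col9a3 had separate groups and differences of 0.32, 0.27 and 0.21, with adjusted p = 0.0667, 0.0811 and 0.208. The second type XII row, col12a1, was at 0.06, the type XIV rows at 0.09 and -0.03, col16a1 at 0.13 and col19a1 at 0.25.

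The remaining classes held few rows. All 4 transmembrane rows tested lay above 0, against 50.6% of all rows. The highest differences of all tested collagen rows were those of COL23A1 (1 of 2) at 0.66 (SE 0.34, adjusted p = 0.315) and col17a1b at 0.61 (SE 0.19, adjusted p = 0.122). The gene col17a1b encodes a hemidesmosome chain of basal epidermis, and its values were -0.15, -0.38 and -0.15 in the heterozygous and 0.37, 0.15 and 0.63 in homs 2, a and b, with separate groups. Values of COL23A1 (1 of 2) ran from -1.08 in het 1 to 0.70 in hom a, and its groups overlapped. The multiplexin rows col15a1b and col18a1, known from vessel, muscle and notochord basement membranes, were at 0.05 (SE 0.10) and -0.03 (SE 0.06).

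Type VI rows ranged from -0.17 for col6a6 to 0.39 for col6a1 (SE 0.17, adjusted p = 0.246), and col28a1, of type XXVIII, was at 0.30. In the type VII pair, the anchoring fibril rows of skin, col7a1l was at 0.26 (SE 0.11, adjusted p = 0.235). The row with the symbol COL4A6 (ENSDARG00000021720), whose gene ID now carries the symbol col7a1 and which was therefore counted as type VII, was at 0.07. The second col6a3 row, col17a1a, COL21A1 (1 of 2) and COL25A1 lay below 16 normalized units at this stage and were not tested.

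**Figure D2:**
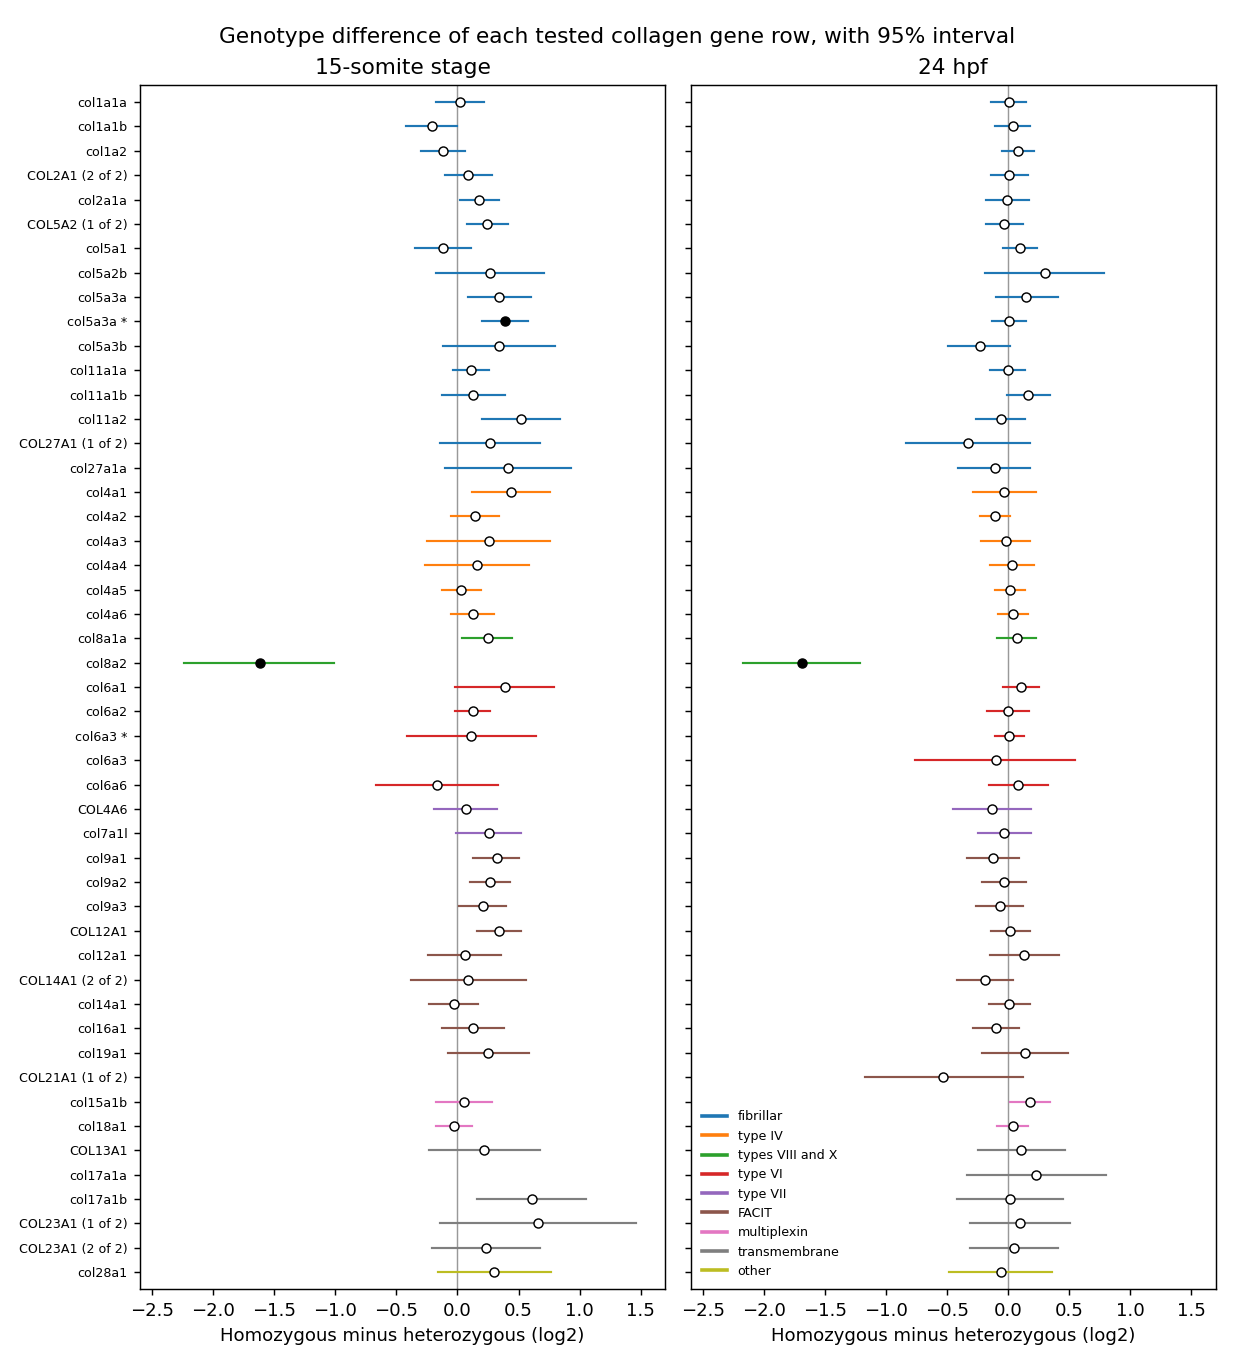
Difference of each collagen row tested at a stage (points, log2 homozygous minus heterozygous) with its 95% interval (lines, coloured by collagen class), at the 15-somite stage on the left and at 24 hpf on the right. Filled points passed the limma test at an adjusted p below 0.05, and an asterisk marks the rows ENSDARG00000077739 of col5a3a and ENSDARG00000077139 of col6a3. The col8a2 interval is the leftmost at both stages, just short of that of COL21A1 (1 of 2) at 24 hpf (upper end -1.21 against a lower end of -1.17), and 39 of 46 points lie above 0 at the 15-somite stage.

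The small upward shift of the collagen rows was unevenly shared by the libraries of the 15-somite stage. The mean over all tested collagen rows but col8a2 was -0.20, -0.07 and -0.05 in het 1 to het 3 and 0.06, 0.15 and 0.05 in homs 2, a and b. Thus het 1 was the lowest and hom a the highest, and the genotypes did not overlap. Het 1 was the lowest of 6 libraries in 27 of 46 collagen rows, against 24.6% of all rows tested, and hom a was the highest in 20, against 16.7%. Het 1 was the highest in 3 collagen rows, against 24% of all rows. Over all rows tested it was the most frequent library at either extreme. Without het 1 there were 34 of 46 rows above 0 with a median of 0.161, and without hom a 38 with a median of 0.152. Type I went against this order, with a mean of 0.19 in het 1 and 0.09 in het 3 and between -0.07 and 0.01 in the others, and type IX was lowest in het 3, at -0.28.

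**Figure D3:**
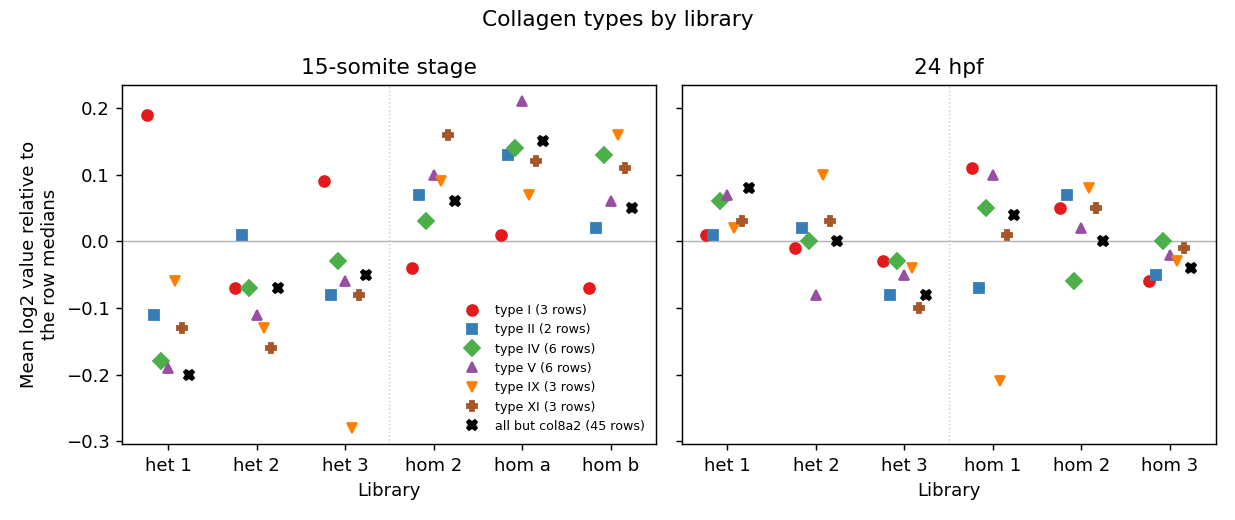
Mean log2 value, relative to the row medians, of the rows of 6 collagen types and of all tested collagen rows but col8a2 (black) in each library, with the 15-somite stage on the left and 24 hpf on the right. Each symbol is a mean over rows of 1 library and has no error bar. At the 15-somite stage the black symbols run from -0.20 to -0.05 in the heterozygous and from 0.05 to 0.15 in the homozygous libraries, and at 24 hpf they run from -0.08 to 0.08 and from -0.04 to 0.04.

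Markers of other tissues in the same libraries were counted beside these values. At the 15-somite stage 4 of 7 epidermal markers fell, cyt1 (-0.59), krt4 (-0.35), EPCAM (-0.36) and cldni (-0.31), against 3.99% of all rows. The others did not pass, with krt5 at -0.29, itga6b at -0.05 and tp63 at -0.04. The list mean lay between 0.14 and 0.15 in the heterozygous and between -0.18 and -0.11 in the homozygous libraries. Apart from cyt1 the epidermal calls of limma were lost without any of het 2, het 3, hom 2, hom a or hom b, with adjusted p up to 0.112. Of 13 mural and fibroblast markers, against the same share, only lum, the gene of the collagen-binding proteoglycan lumican, fell (-1.02, SE 0.22, adjusted p = 0.0455), a call lost with any 1 library left out (adjusted p 0.081 to 0.131). Of 5 muscle markers ttnb, a titin gene, rose, against 1.05% of all rows (0.44, SE 0.09, adjusted p = 0.0324), a call kept only without hom a (adjusted p 0.0432 there, up to 0.117 elsewhere).

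No marker passed the limma test among 9 notochord, 6 cartilage and crest and 4 tendon rows at the 15-somite stage, beside 5.04% of all rows. In these lists 2, 2 and 0 rows had an unadjusted p below 0.05, beside 12.2% of all rows below 0 and 9.92% above. At 24 hpf 0 rows passed in the epidermal, mural, muscle, notochord, cartilage and tendon lists, beside 0.369% of all rows. In list order 0, 1, 0, 0, 0 and 1 rows had an unadjusted p below 0.05, beside 4.04% and 3.22% of all rows. The part of these tissues in the collagen values was not tested.

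At 24 hpf the collagen rows lay around 0. Of 49 rows tested 1 fell, col8a2, and 0 rose by limma, beside 0.337% and 0.0321% of 18700 rows. Differences were above 0 in 28 rows (57.1%, against 50.4% of all rows) and below 0 in 21 (49.6% of all rows), with a median of 0.01 against 9e-04 over all rows, and the homozygous libraries lay above all heterozygous ones in 4 rows (8.16%, against 6.36%). Only col8a2 and col4a2 had every homozygous library below, against 6.51% of all rows. Without het 3, the lowest of 6 libraries in 19 of the 49 rows (15.1% of all rows), 21 rows lay above 0 and the median was -0.0209.

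**Figure D4:**
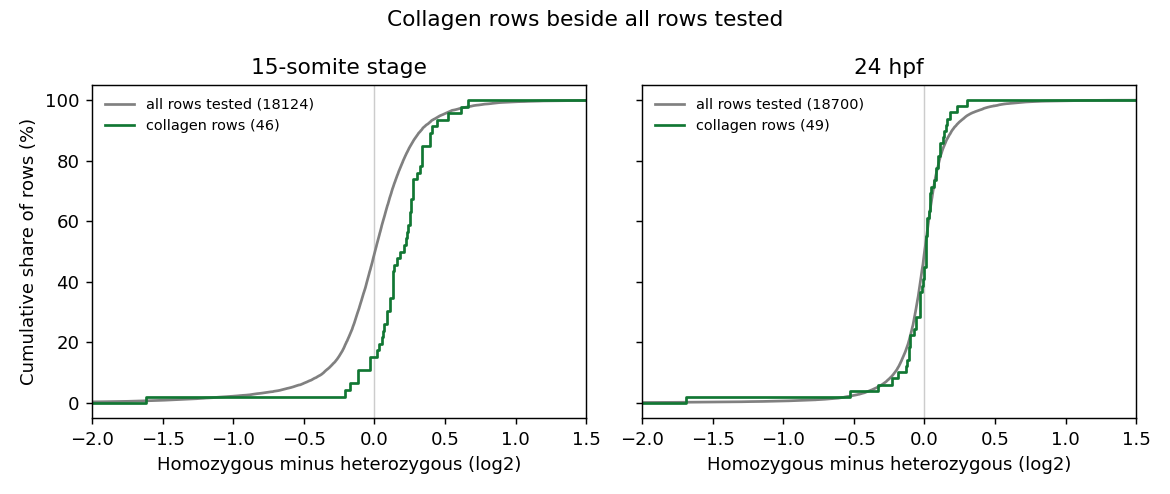
Cumulative share of rows (percent) against the log2 difference, for the collagen rows (green) and for all rows tested (grey), at the 15-somite stage on the left and 24 hpf on the right. At the 15-somite stage the green curve lies to the right of the grey one for most of its length, with medians of 0.19 and 0.0031, and at 24 hpf they run together, with medians of 0.01 and 9e-04.

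Single collagen genes other than col8a2 differed little at 24 hpf. At an unadjusted p below 0.05 there was 1 row below 0, col8a2, and 1 above, where the shares over all rows were 4.04% and 3.22%. The row above 0 was col15a1b (ENSDARG00000061848), whose values were -0.03, -0.05 and -0.17 in het 1 to het 3 and 0.07, 0.20 and 0.03 in hom 1 to hom 3. The groups were separate and the difference was 0.18 (SE 0.07, 95% interval 0.02 to 0.34, adjusted p = 0.641). The type I genes col1a1a, col1a1b and col1a2 were at 0.01, 0.04 and 0.08, each with an SE of 0.06. For col1a2 the 95% interval was -0.05 to 0.21.

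The basement membrane chains col4a1, col4a2 and col18a1 and the notochord sheath chain col2a1a were close to 0 as well. For col4a1 the 24 hpf values were 0.19, 0.03 and -0.22 against 0.11, -0.17 and -0.03, a difference of -0.03 with a 95% interval of -0.29 to 0.23. For col4a2 they were 0.06, 0.02 and 0.08 against -0.03, -0.11 and -0.02, so the homozygous libraries lay below the heterozygous ones by 0.11 on the log2 scale (difference -0.11, SE 0.05, adjusted p = 0.756). The sheath gene col2a1a was at -0.01 (95% interval -0.18 to 0.17) and col18a1 at 0.04 (95% interval -0.09 to 0.16). The type IX rows col9a1, col9a2 and col9a3 were at -0.12, -0.03 and -0.07. The type XXVII rows col27a1a and COL27A1 (1 of 2) were at -0.11 and -0.33, and none of these rows passed the test.

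The extremes at 24 hpf were thinly supported. The highest differences were those of col5a2b (0.30, SE 0.21), col17a1a (0.23, SE 0.25), col11a1b (0.16, SE 0.07) and the col5a3a row ENSDARG00000017360 (0.15, SE 0.11), beside col15a1b. The lowest after col8a2 were COL21A1 (1 of 2) (-0.53, SE 0.28, adjusted p = 0.773), COL27A1 (1 of 2) (-0.33, SE 0.22), col5a3b (-0.23, SE 0.11) and COL14A1 (2 of 2) (-0.19, SE 0.10). In COL21A1 (1 of 2) the value of het 1, 0.92, stood above the others, which ran from -0.49 to 0.02. The row of col5a3a that rose at the 15-somite stage was at 0.01 (SE 0.06), with a 95% interval of -0.13 to 0.15.

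The genotype effects of the stages were then compared directly. Over the 46 collagen rows tested at both stages, 0 were called by the limma interaction, beside 3.91% of 17474 rows, and 14 had an unadjusted p below 0.05. Of these, 12 had a lower effect at 24 hpf and 2, col1a1b and col1a2, a higher one, where the shares over all rows were 8.46% and 10.8%. The effect was lower at 24 hpf in 36 of 46 rows, with a median of -0.18, against -0.00 over all rows. The nearest to the threshold were the col5a3a row ENSDARG00000077739 (-0.38, SE 0.10, adjusted p = 0.0572), col9a1 (-0.44, SE 0.12, adjusted p = 0.0661) and col11a2 (-0.58, SE 0.17, adjusted p = 0.0847). Each of the 12 libraries was left out in turn. The limma interaction of that col5a3a row passed in 1 of 12 such fits, without the 15-somite library het 2. Its adjusted p ran from 0.0407 to 0.137. The interaction of col11a2 passed in 2 of 12, without the 15-somite library het 1 or hom a. Its adjusted p ran from 0.0321 to 0.186. The interaction of col9a1 passed without the 24 hpf library hom 2.

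For the basement membrane pair the stage differences were -0.47 for col4a1 (SE 0.19, adjusted p = 0.199) and -0.25 for col4a2 (SE 0.10, adjusted p = 0.180). For type I they were 0.25 for col1a1b (SE 0.11) and 0.20 for col1a2 (SE 0.09), with adjusted p = 0.244 for each. Across the 46 rows the effects of the stages had Pearson's r of 0.72 and Spearman's rho of -0.12, and without col8a2 they had r of -0.13 and rho of -0.20, against 0.19 and -0.02 over all rows tested at both stages. These describe rows that share libraries, and rows are not independent replicates.

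**Figure D5:**
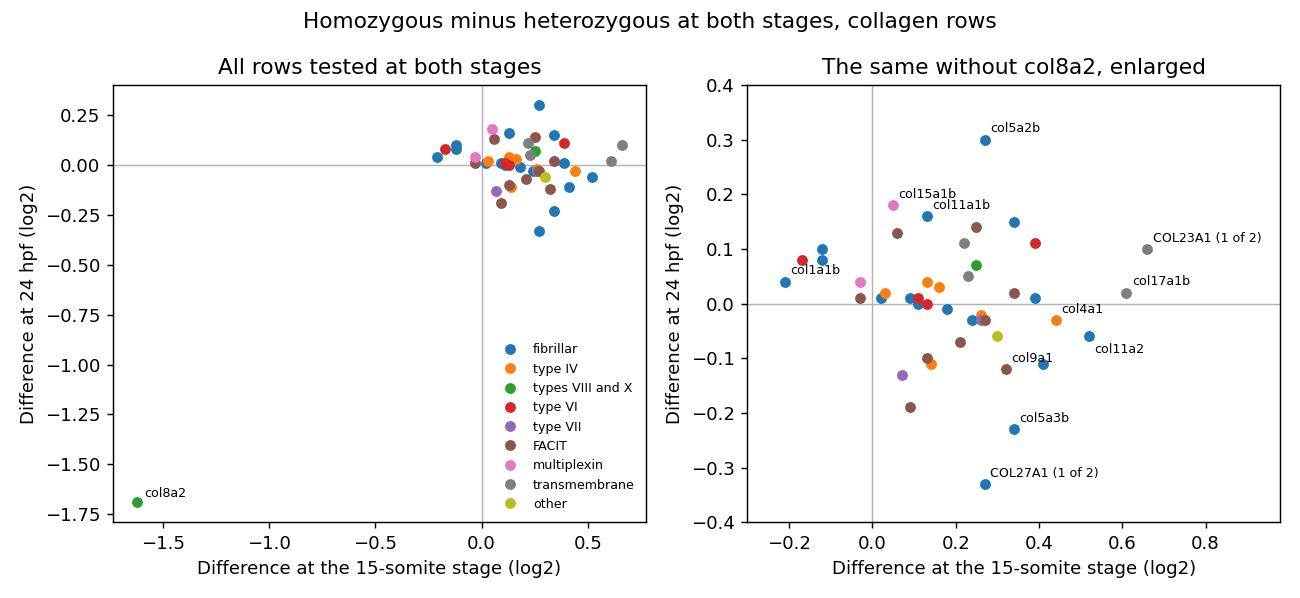
Difference at 24 hpf against difference at the 15-somite stage (both log2 homozygous minus heterozygous) for the 46 collagen rows tested at both stages, coloured by class, with all rows on the left and the rows other than col8a2 enlarged on the right. The point of col8a2 lies at -1.62 and -1.69, and the others run from -0.21 to 0.66 on the horizontal and from -0.33 to 0.30 on the vertical axis.

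Genes that modify, fold, export and crosslink collagen were taken as a second list. Of 50 such symbols 40 were found, and 35 rows were tested at the 15-somite stage. Their median was -0.05 and 12 lay above 0, against 50.6% of all rows. At an unadjusted p below 0.05 there were 6 below 0 and 2 above, where the shares over all rows were 12.2% and 9.92%. One fell by limma, against 3.99% of all rows, fkbp14 (ENSDARG00000040695), which encodes a prolyl isomerase of the endoplasmic reticulum that helps collagen to fold. Its values were 0.24, 0.16 and 0.29 in het 1 to het 3 and -0.16, -0.22 and -0.24 in homs 2, a and b, a difference of -0.44 (SE 0.06, adjusted p = 0.0131). Without hom a the difference was -0.434 and the adjusted p 0.0528. At 24 hpf fkbp14 was at -0.08 (SE 0.06, adjusted p = 0.838).

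In the same list p4ha2 and p4hb, subunit genes of the prolyl 4-hydroxylase that stabilises the triple helix, were at -0.24 (adjusted p = 0.0721) and -0.21 (adjusted p = 0.184) at the 15-somite stage. The subunit rows p4ha1a and p4ha1b were at -0.01 and -0.03. The crosslinking oxidase gene loxl1 was at 0.35 (adjusted p = 0.0771) and sparc, the gene of a collagen-binding matrix protein, at -0.17 (adjusted p = 0.197). Among other oxidase rows loxl2a, loxl2b and loxl5b were at -0.03, -0.02 and -0.04, and loxl3b was at 0.17. At 24 hpf 0 of 36 rows were called by limma, beside 0.369% of all rows. An unadjusted p below 0.05 was held by 3, all above 0 (3.22% of all rows). The median was 0.03, and the differences ran from -0.81 to 0.44. Among 12 basement membrane partners (laminin, nidogen, perlecan and fibronectin genes) limma called 0 at either stage, beside 5.04% and 0.369% of all rows. Their medians were -0.01 and 0.04. At an unadjusted p below 0.05 there were 2 such rows at the 15-somite stage, lama2 at 0.48 and nid1a at -0.29, and 1 at 24 hpf, lamb1b at -0.27. The shares over all rows were 12.2% below and 9.92% above 0 at the 15-somite stage, and 4.04% and 3.22% at 24 hpf.

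Neighbourhood of the targeted gene was looked up by current symbol, or by the symbol of the tables where the current one was absent or had no match. Of the 52 collagen rows 45 were matched in the RefSeq annotation of assembly GRCz12tu, which is not the authors' build, and 1, the type VI row col6a6, lies on the chromosome of etv2. Its differences were -0.17 (SE 0.22, adjusted p = 0.692) and 0.08 (SE 0.11, adjusted p = 0.927). The gene col8a2 lies on another chromosome.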

How the data were processed

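The authors deposited 1 table of normalized log2 values per stage; the tool DESeq and the build Zv9 are named in the submitters' processing notes, while for the aligner, read counter, annotation, strand handling and any version, the entry is: not given in the sources used here. Libraries were made from total RNA with an NEBNext Ultra kit, per the labels' protocols. From the values, the authors had floored levels at 1 normalized unit, taken the log and then centred each row on its median. No column was left unused, and no counts are held, so no count test was run: only 44.9% to 57.8% of low values came out as whole reads, within 0.01 read.

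The step of numbers stored at limited binary precision placed the uncentred median of a row in 1 of 4 level classes, with limits at 4, 16 and 256 normalized units. Rows known from the floor to lie below 16 were wrongly put at 16 or above by the step alone in 3.79% (15-somite stage) and 8.24% (24 hpf), and took their known class. Rows where the floor did not show kept the class of the step, so some of them may be misplaced. The step was read in the libraries near or above the row median, for col8a2 the heterozygous ones alone. Rows at 16 or above were tested, 18124 and 18700. Without a filter on low values col8a2 was also called at both stages.

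Fits used limma 3.58.1 in R 4.3.3 per stage, without a replicate block, with 1 prior spread per level class, two-sided; the stage difference was an interaction over all 12 libraries. The text names etv2, called collagen rows, the 5 largest rises and falls per stage, the row of each class with the largest t, chains of vessels, notochord and type I, and the called and leading rows of 9 marker and pathway lists. Members and lists were chosen with earlier results of these data known; the level rule and the place of COL4A6 under type VII were settled after the tables were seen. Rows named outside the rule were chosen after their values were seen. Alternatives changed the filter, scaling, prior spread, samples and libraries.

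At 24 hpf the deviations of same-numbered libraries correlated at 0.12, 0.02 and -0.01, so the numbers were not taken to pair libraries.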

Additional observations from a re-analysis of the deposited data

How the results depend on the processing

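At the 15-somite stage the count of 2 called collagen rows was 1 without a filter on low values and 1 with one prior spread. It was 8 with all 12 libraries in one fit and 0 to 1 with each library left out. Calls among all rows numbered 913 as reported, and 729, 328, 1999 and 167 to 727 under these settings in turn. The one fit covered the 17474 rows tested at both stages. The 8 were col8a2, the col5a3a row ENSDARG00000077739, COL12A1, col9a1, col9a2, col11a2, COL5A2 (1 of 2) and col17a1b. Quantile normalization gave 3, beside 1177 calls among all 18124 rows. Rows of the highest level class alone gave 3 of 31, beside 951 calls among 10528 rows, and col8a2 is not in that class. At 24 hpf the count of 1 became 0 in that class, beside 40 calls among 10731 rows. It was 0 to 1 with each library left out, beside 32 to 54 over all rows. With the replicate number as a block it was also 0, beside 32 over all rows, with an adjusted p for col8a2 of 0.116 by limma. The stage difference, with 0 called, gave 2 in that class (col5a3a and col9a1). It gave 1 after quantile normalization (col5a3a) and 0 to 1 with each library left out. Over all rows its calls numbered 684, or 743 in that class, 836 after quantile normalization and 228 to 726 with each library left out. With one prior spread, or with all 12 libraries in one fit, the differences themselves stayed the same and only their spread was estimated otherwise. The filter changes the rows tested. The cause of these changes was not tested beyond that.

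Over all rows, calls at the 15-somite stage numbered 913, or 328 with one prior spread, 1999 with all 12 libraries in one fit and 167 to 727 with a library left out, and at 24 hpf 69, or 32 to 54. Of 46 collagen rows at the 15-somite stage 34 to 41 lay above 0 with a library left out, and 39 under either scaling; at 24 hpf it was 21 to 33 of 49. The stage effect was lower at 24 hpf in 36 of 46 rows, and in 22 of the 30 rows of the highest level class.

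Only collagen rows named by the rule were examined singly with a library left out. Among them small differences changed sign, none of them called. At the 15-somite stage the range was -0.0877 to 0.203 for COL14A1 (2 of 2), -0.0212 to 0.173 for COL4A6, -0.0203 to 0.139 for col15a1b, -0.0556 to 0.00272 for col18a1 and -0.0537 to 0.0833 for col1a1a. At 24 hpf it was -0.0332 to 0.0668 for COL12A1, -0.0398 to 0.207 for COL23A1 (1 of 2), -0.223 to 0.0067 for COL4A6, -0.131 to 0.0102 for col11a2, -0.00387 to 0.452 for col17a1a, -0.127 to 0.105 for col17a1b and -0.0394 to 0.057 for col1a1a. It was -0.0109 to 0.0883 for col1a1b, -0.149 to 0.0881 for col28a1, -0.0588 to 0.0645 for col2a1a, -0.136 to 0.0659 for col4a1, -0.0346 to 0.0381 for the col5a3a row ENSDARG00000077739, -0.0264 to 0.164 for col6a6 and -0.0964 to 0.06 for col7a1l.

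The alternatives for etv2 and the marker rows were chosen after seeing the data. The 15-somite columns that share a name carry no usable number, so no block was fitted there or for the stage difference. A pseudocount could not be varied, since the floor was set before deposit, and without counts the depth behind small differences is unknown.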
